A study of Macaca fascicularis with 64 samples.

Results

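The comparison set skeletal muscle of newborn cynomolgus monkeys (Macaca fascicularis) carrying a SIRT6 mutation against wild-type fetal muscle from gestation month 4. It asked for which maturation genes the mutant newborn had gone past the month 4 level and for which it had not. Its members were the muscle libraries titled KO2 and KO3 and the month 4 muscle libraries, 6 of the 64 libraries in the series, with 4 KO and 2 month 4 libraries. KO2 and KO3 were read from the titles as 2 animals with 2 repeat libraries each, and the repeats were averaged, which left 2 KO animals against 2 month 4 libraries. The labels give the genotype as SIRT6 mutant, the design text writes SIRT6-/-, and the kind of mutation is not stated. The anatomical muscle is not stated for any group.

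The series holds bulk RNA sequencing of newborn tissues of SIRT6 mutant and wild-type (WT) monkeys and of wild-type fetal brain and muscle from gestation months 2 and 4. Newborn WT muscle (WT2 and WT3, 4 libraries) and month 2 fetal muscle (2 libraries) were used here to define which genes change with maturation. Newborn and fetal libraries were deposited in separate tables, so age, genotype and table differ together between KO and month 4 and cannot be told apart. Nothing states that the 2 month 4 libraries came from separate fetuses, and the p-values may then rest partly on technical spread. FPKM (fragments scaled by transcript length and by the mapped fragments of the library) keeps no read depth, so the depth behind each value is unknown.

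Muscle fibres form by fusion of myoblasts and first build their contractile apparatus from embryonic and fetal isoforms. As the fibres mature, embryonic myosin is replaced by neonatal and then by adult fast or slow myosin, precursor proliferation and matrix deposition decline, and the machinery for glycogen use, fat oxidation and calcium release is built up. SIRT6, a sirtuin found in the nucleus, removes acyl groups from histones and takes part in genome maintenance, metabolism and growth control.

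The SIRT6 transcript stood at 7.70 and 7.26 FPKM in the month 4 libraries, at 5.35 and 4.62 in KO2 and at 8.99 and 8.62 in KO3. The groups overlapped, and the log2 change was -0.03 (SE 0.25, 95% interval -0.63 to 0.56, limma adjusted p = 0.96). A mutation need not lower its transcript, so this value does not check the labels.

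All 6 libraries carried the skeletal muscle programme: 19 skeletal muscle genes, among them ACTA1, CKM, RYR1 and MYOD1, were above 0 in each, and 6 heart genes summed to between 2.88 and 6.01 FPKM. Repeat libraries of a KO animal correlated across tested genes at Pearson r = 0.993, the month 4 libraries at 0.97, and KO2 with KO3 at 0.913 to 0.917. The month 4 libraries differed from each other in smooth muscle genes: MYH11, the smooth muscle myosin, was at 63.2 FPKM in library 1 and 6.57 in library 2. Both month 4 libraries had low ribosomal protein transcripts, with 81 genes summing to 60790 and 62460 FPKM against 124900 to 134700 in KO. KO2 stood apart from KO3 in heat shock genes, at summed levels of 21150 and 21550 FPKM against 1824 and 1781, and in macrophage genes, at 13.4 and 11.1 against 89.2 and 83.0. In bulk tissue, fewer cells of a type and less RNA per cell cannot be told apart.

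**Figure D1:**
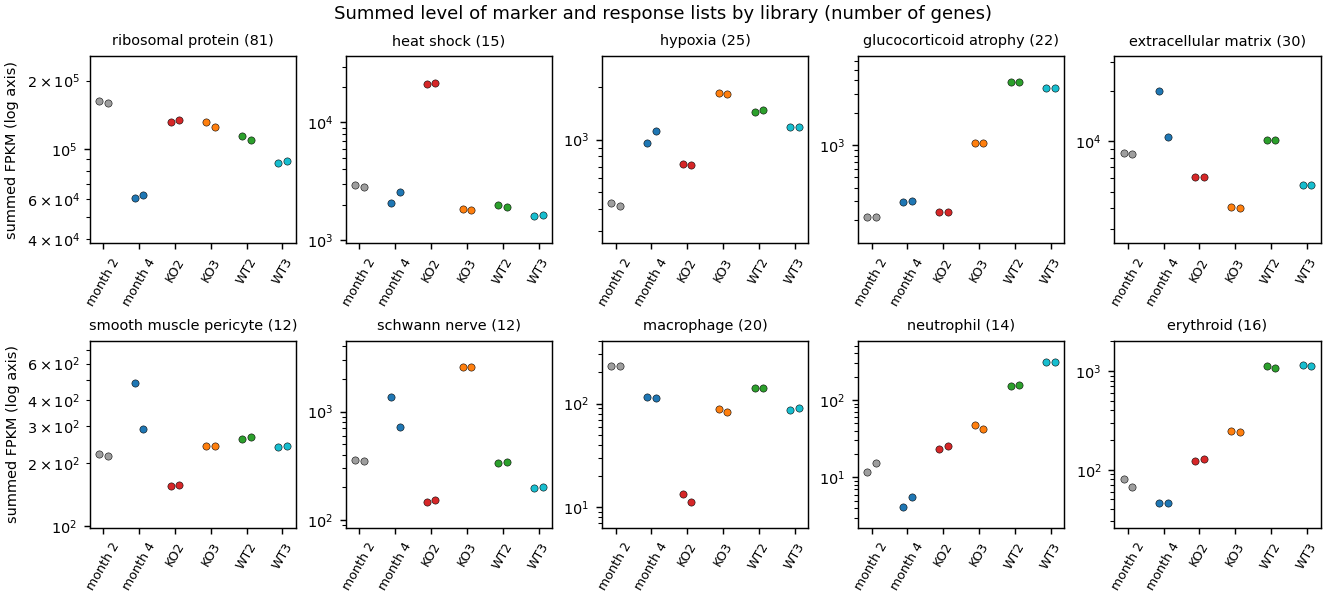
Summed FPKM (log axis) of 10 lists in each of the 12 muscle libraries, with 1 point per library and the number of genes in brackets. Ribosomal protein transcripts were lowest in month 4, heat shock genes were highest in KO2 and macrophage genes were lowest in KO2.

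Maturation genes were taken from WT newborn muscle against month 2 muscle, which shares no library with the comparison of KO and month 4. Of 12147 genes tested there with limma, 2193 were higher in the newborn by at least 2-fold at an adjusted p under 0.05 (called late genes here) and 2184 were lower (early genes). KO had passed month 4 for a late gene where it lay above the month 4 libraries, and for an early gene where it lay below them. KO was behind month 4 where it lay on the other side. Both contrasts subtract a fetal table from a newborn table, so any offset between the tables enters both.

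KO muscle had moved past month 4 for more maturation genes than it was behind for, but the test passed few of them. Of 12419 genes tested between KO and month 4, 43 (0.346%) passed an adjusted p of 0.05 with limma, 34 (0.274%) higher and 9 (0.0725%) lower in KO. Of the 43, 30 carry only a LOC identifier. So do 10573 of all 28141 genes listed, and the share among tested genes is not given here. Among the 2099 late genes tested, 17 passed the test as higher and 2 as lower. Among the 2036 early genes tested, 2 passed the test as lower and 1 as higher. Without month 4 library 1 the test passed 2 genes and without library 2 it passed 25, against 1162 without KO2 and 584 without KO3. At an unadjusted p under 0.05, 387 late genes were higher and 90 lower, and 475 early genes were lower and 73 higher. Of all 12419 genes tested, 1069 were higher and 1161 lower at that threshold.

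A rule of size, with no test, was added after seeing the data. A gene met it when all 4 KO libraries lay on the same side of both month 4 libraries, in FPKM and after normalisation, with at least a 2-fold difference. By that rule 539 of all genes tested (4.34%) were higher and 616 (4.96%) lower in KO. These shares are the background for the list counts by size below that use all 6 libraries. Among late genes 211 (10.1%) had passed month 4 and 53 (2.53%) were behind it. Among early genes 301 (14.8%) had passed and 44 (2.16%) were behind. The filter on low values let 102 early genes in through month 4 alone (KO mean under 1 FPKM) and 95 late genes through KO alone, which tilts the passed counts upward. In the deposited FPKM of all class members above 0, tested or not, all KO libraries were above both month 4 libraries for 418 of 2193 late genes and below for 202, and above for 157 of 2181 early genes and below for 1091, against 9.67% and 20.6% of all genes above 0. Without KO2 the passed counts were 471 late genes (22.3%) and 541 early genes (26.4%). Without KO3 the behind counts were 91 (4.47%) and 96 (4.67%). Of all genes tested, 7.69% were higher and 8.71% lower by size without KO2, and 5.96% and 5.22% without KO3. Without month 4 library 1 these shares were 5.68% and 5.56%, and without library 2 they were 5.13% and 5.43%. They are the background for counts by size below with a replicate left out. Genes of neither class, which include those not tested in the WT contrast, stood near the level of all genes, with 3.43% higher and 3.16% lower. The median log2 change was 0.29 for late genes, -0.34 for early genes and 0.01 for all genes tested.

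The distance differed between the KO animals. On a scale where each gene's month 2 mean is 0% and its WT newborn mean is 100%, late genes had a median position of 55.0% and 48.2% in the month 4 libraries, 57.4% in KO2 and 83.0% in KO3. Early genes had a median position of 52.4% and 41.4% in month 4, 56.4% in KO2 and 85.0% in KO3. KO2 was thus 2.4 points beyond the nearer month 4 library for late genes, and KO3 28.0 points beyond it. KO2 was beyond both month 4 libraries for 43.9% of late genes and short of both for 34.3%, whereas KO3 was beyond both for 70.0% and short of both for 15.6%. Across the 11679 genes tested in both contrasts, the KO minus month 4 change had Pearson r = 0.346 and Spearman rho = 0.368 with the WT minus month 2 change, a description across genes that are not independent.

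**Figure D2:**
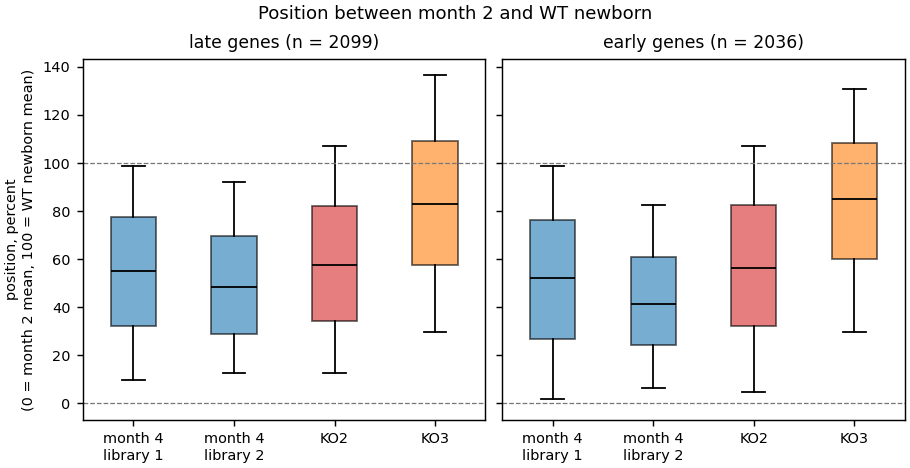
Position of each maturation gene between month 2 (0%) and WT newborn (100%), as boxes of the middle 50% of genes with the median as a line and whiskers from the 10th to the 90th percentile. KO2 lies close to month 4 library 1 in both panels, and KO3 lies nearer the WT newborn level.

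**Figure D3:**
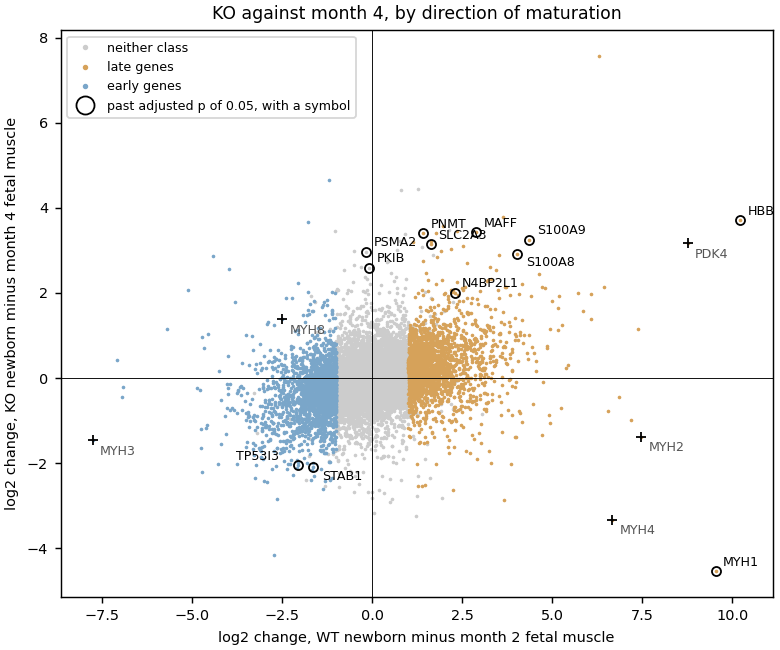
Log2 change of KO against month 4 (vertical) and of WT newborn against month 2 (horizontal), with 1 point per gene on the log2(FPKM + 1) scale. Circled genes passed the test of KO against month 4 and have a symbol, and crosses mark other genes described in the text; MYH1 lies far below 0 among the late genes.

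The myosin heavy chains, the motor proteins that define fibre type, were split. MYH7, the slow myosin, was not found under that symbol among the genes listed, so no value is given for it. MYH1, the adult fast IIX myosin, was at 516 and 1082 FPKM in month 4 and at 34.6, 35.6, 38.0 and 36.6 in the KO libraries. All KO libraries lay far below both month 4 libraries, and KO2 and KO3 were close to each other. The log2 change was -4.54 (SE 0.41, 95% interval -5.53 to -3.55, limma adjusted p = 0.021), and MYH1 was the only gene with a symbol that passed the test as behind month 4. Month 2 muscle had 0.187 and 0.196 FPKM and WT newborn muscle 561 to 1228, so one month 4 library lay within the WT newborn range and the other just below it, while KO lay between month 2 and month 4. The call did not depend on a single library: it held when each animal or month 4 library was left out, and among the alternatives run it was lost only with no filter on low genes (adjusted p = 0.20).

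MYH2, the adult fast IIA myosin, was at 557 and 852 FPKM in month 4, at 268 and 269 in KO2 and at 404 and 415 in KO3. The KO libraries were again below both month 4 libraries, but the log2 change of -1.38 (SE 0.35, 95% interval -2.23 to -0.54) did not pass the test (limma adjusted p = 0.13). MYH4, the adult fast IIB myosin, was at 27.8 and 378 FPKM in month 4, at 1.82 and 2.06 in KO2 and at 29.6 and 31.0 in KO3. Here the month 4 libraries differed from each other as widely as the groups did, the groups overlapped, and the log2 change of -3.33 (SE 1.40, limma adjusted p = 0.29) was not told apart from 0. MYH6 and MYH7B, cardiac and slow-type relatives, did not pass the test: MYH6 was at 1.60 to 4.32 FPKM over the 6 libraries, and MYH7B was at 31.1 and 60.02 in month 4, 45.6 and 47.0 in KO2 and 16.4 and 17.1 in KO3. The myosin heavy chain genes are close in sequence, and how the authors' counting split reads between them is not stated, so single values are uncertain.

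MYH3, the embryonic myosin, was at 993 and 696 FPKM in month 4, at 469 and 467 in KO2 and at 307 and 306 in KO3. KO had gone past month 4 by the rule of size, with a log2 change of -1.46 (SE 0.36, 95% interval -2.35 to -0.58) that did not pass the test (limma adjusted p = 0.13). It remained far from the WT newborn level of 4.11 to 14.9 FPKM: KO stood at 27.6% of the way from month 2 to WT newborn, against 8.73% in month 4. MYH8, the neonatal myosin, was at 173 and 165 FPKM in month 4, at 189 and 207 in KO2 and at 1109 and 1123 in KO3. All KO libraries exceeded month 4, but KO3 alone was far above it, and the log2 change of 1.38 (SE 0.72, 95% interval -0.37 to 3.13) did not pass the test (limma adjusted p = 0.37). MYH8 was at 53.7 to 92.4 FPKM in WT newborn muscle and is an early gene by the WT contrast.

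**Figure D4:**
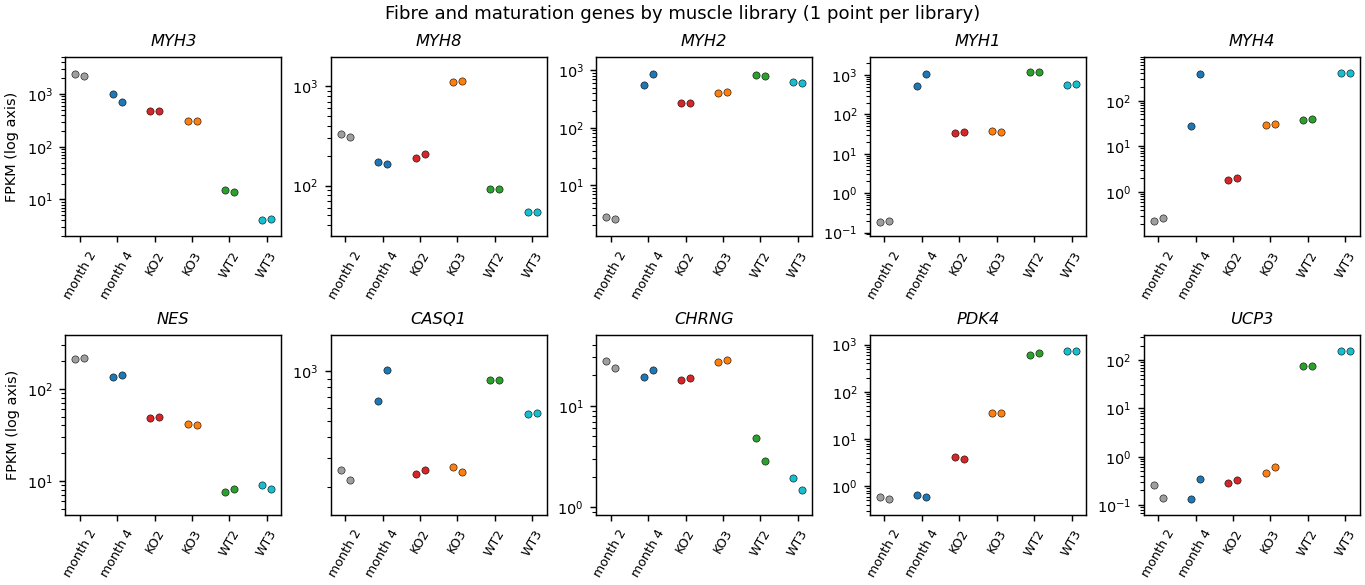
FPKM (log axis) of 10 fibre and maturation genes in each muscle library, with 1 point per library. MYH1 and CASQ1 lie below month 4 in every KO library, MYH3 and NES lie between month 4 and WT newborn, and UCP3 is under 1 FPKM in all but the WT newborn libraries.

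The adult fast fibre list, contractile and calcium-store proteins of fast fibres, lay below month 4. Of its 19 genes, 18 had a negative log2 change, MYH1 passed the test, and 6 met the rule of size as lower against 4.96% of all genes: MYH1, MYH2, CASQ1, MYOZ3, TPM1 and PVALB. The median log2 change was -0.77, with -1.03 in KO2 and -0.73 in KO3. Without quantile normalisation 16 of the 19 were negative and the median was -0.68. The 12 late and 1 early genes of the list had a median position of 94.9% in month 4 and 54.2% in KO. Without month 4 library 1 the count by size was 11, without KO3 it was 10, and without library 2 it was 5, with a median of -0.39.

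CASQ1, the calcium-binding protein of the fast fibre calcium store, was at 659 and 1018 FPKM in month 4, at 241 and 254 in KO2 and at 265 and 246 in KO3. Every KO library was below both month 4 libraries and within the range of month 2 (221 and 253) or just above it, and the log2 change was -2.03 (SE 0.29, 95% interval -2.72 to -1.33, limma adjusted p = 0.061). MYOZ3, a Z-disc protein of fast fibres, was at 16.7 and 31.5 FPKM in month 4 and at 2.19 to 2.71 in the KO libraries, with WT newborn muscle at 6.67 to 10.1. The KO level was also below WT newborn, and the log2 change was -2.63 (SE 0.40, limma adjusted p = 0.065). The fast troponins and light chains differed less: TNNT3 was at 2577 and 4862 FPKM in month 4 and at 3487 to 4173 in KO, inside the month 4 range.

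The slow fibre list showed a split by animal. None of its 15 genes passed the test, 13 had a negative log2 change, and 1 met the rule of size as lower, TPM3 (slow tropomyosin), against 8 without KO2 and 3 without month 4 library 1. The median log2 change was -0.71, with -0.38 in KO2 and -1.24 in KO3, and it was -0.31 when only the medians of all genes were set equal. TNNT1, slow troponin T, was at 820 and 1130 FPKM in month 4, at 976 and 979 in KO2 and at 181 and 169 in KO3. KO2 thus lay within month 4, and KO3 was below month 2 (235 and 270). MB, the oxygen store myoglobin, was at 1740 and 2372 FPKM in month 4, at 2623 and 2656 in KO2 and at 908 and 868 in KO3, against 5488 to 6171 in WT newborn muscle. The muscle sampled is not stated, and its part in these fibre-type values was not tested.

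Among early sarcomere genes, 0 of 12 passed the test. At an unadjusted p under 0.05, 1 was higher and 5 lower, against 1069 and 1161 of all 12419 genes tested. By size 4 were lower (MYH3, NES, ACTA2 and TAGLN) and 2 higher (MYH8 and MYBPH), and the median log2 change was -0.79. That median was -0.44 when only the medians of all genes were set equal and -0.54 with no normalisation beyond FPKM. NES, the intermediate filament nestin of immature fibres, was at 133 and 141 FPKM in month 4, at 48.8 and 50.03 in KO2 and at 41.6 and 40.0 in KO3. The KO libraries were well below month 4 and above the WT newborn range of 7.67 to 9.11, and the log2 change was -1.64 (SE 0.31, limma adjusted p = 0.086). MYBPH, a myosin-binding protein, was at 1.72 and 2.79 FPKM in month 4, at 16.5 and 16.1 in KO2 and at 60.1 and 59.7 in KO3, with a log2 change of 3.45 (SE 0.52, limma adjusted p = 0.063). MYL4, the embryonic light chain, was at 3.23 and 1.96 FPKM in month 4 against 272 and 324 in month 2, and KO stood at 1.27 to 6.08, so month 4 and KO overlapped far below month 2. ACTA2 and TAGLN are also smooth muscle genes and differed 4-fold or more between the month 4 libraries, as MYH11 did.

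Myogenic regulators gave 0 of 26 past the test, 2 higher and 3 lower by size and a median log2 change of -0.06, which ran from -0.11 to 0.25 with each animal or library left out; without KO2, 6 were lower by size. MYMX (myomixer), a peptide that drives myoblast fusion, was at 7.42 and 13.3 FPKM in month 4, at 0.781 and 1.26 in KO2 and at 1.96 and 2.09 in KO3. KO was below both month 4 libraries and near WT newborn (1.38 to 2.05), with a log2 change of -2.03 (SE 0.35, limma adjusted p = 0.077). Its partner myomaker, listed as TMEM8C, was at 14.8 and 26.0 FPKM in month 4 and at 3.88 to 13.6 in KO. MSC (musculin), a repressor of myogenic differentiation, also met the rule of size as lower, and MYF5 and SIX4, transcription factors of myogenic precursors, as higher. SIX4 was at 1.86 and 1.52 FPKM in month 4 and at 6.01 to 6.90 in KO, above WT newborn (2.50 to 5.77), with a log2 change of 1.59 (SE 0.29, limma adjusted p = 0.081).

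At the neuromuscular junction none of 13 genes passed the test or met the rule of size, and the median log2 change was 0.22. CHRNG, the fetal acetylcholine receptor subunit that is withdrawn as innervation matures, was at 19.5 and 22.7 FPKM in month 4, at 17.9 and 18.8 in KO2 and at 27.4 and 28.6 in KO3. KO2 lay just below and KO3 above month 4, month 2 was at 27.7 and 23.5, and WT newborn muscle was at 1.48 to 4.85. CHRNE, the adult subunit that replaces it, was at 3.19 and 5.70 FPKM in month 4, at 14.2 and 13.2 in KO2 and at 5.33 and 6.59 in KO3, and only 2.47 to 4.92 in WT newborn muscle. NCAM1, an adhesion molecule of immature and denervated fibres, was at 15.3 and 11.4 FPKM in month 4 and at 12.6 to 20.8 in KO, against 3.23 to 5.09 in WT newborn, with a log2 change of 0.42 (SE 0.27, 95% interval -0.22 to 1.07, limma adjusted p = 0.45).

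The cell cycle genes were lower in KO than in month 4 in nearly all members. Of the 40 listed genes, 37 had a lower mean FPKM in KO and 35 had all KO libraries below both month 4 libraries, or 87.5%, against 20.6% of the 22860 genes above 0 in a library. A mean of 1 FPKM was needed for testing, which left 26, and 11 of these had a KO mean under 1 and so were tested through their month 4 level. Counts over the tested genes are tilted by that filter and are given as a description: none passed the test, and 15 met the rule of size as lower. The lower count was 11 of 20 without month 4 library 1 and 15 of 24 without library 2. It was 21 of 29 without KO2 and 14 of 28 without KO3. CDK1, the mitotic kinase, was at 6.48 and 4.82 FPKM in month 4, at 0.261 and 0.599 in KO2 and at 1.09 and 0.828 in KO3. All KO libraries were below month 4 and at or near the WT newborn range of 0.393 to 1.07, with a log2 change of -1.92 (SE 0.25, 95% interval -2.53 to -1.31, limma adjusted p = 0.051). PCNA, the DNA polymerase clamp, was at 19.03 and 14.1 FPKM in month 4, at 2.67 and 2.12 in KO2 and at 5.77 in both KO3 libraries. KO was below the WT newborn range of 5.98 to 9.08, with a log2 change of -1.76 (SE 0.29, limma adjusted p = 0.071).

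The extracellular matrix genes lay below month 4 without exception in sign: 30 of 30 tested had a negative log2 change. By size 13 were lower, and none passed the test. At an unadjusted p under 0.05, 12 were lower, against 1161 of all 12419 genes tested. Of the 30, 1 had a KO mean under 1 FPKM and so was tested through its month 4 level. The median log2 change was -1.12, with -0.67 in KO2 and -1.48 in KO3. COL1A1, the main chain of type I collagen, was at 6753 and 4128 FPKM in month 4, at 1589 and 1606 in KO2 and at 755 and 742 in KO3. Every KO library was below month 4, KO3 was also below WT newborn (1504 to 3095), and the log2 change was -2.69 (SE 0.45, 95% interval -3.78 to -1.61, limma adjusted p = 0.071). COL1A2, its partner chain, had a log2 change of -2.82 (SE 0.50, limma adjusted p = 0.079). TNC, the developmental matrix protein tenascin C, was at 23.0 and 9.37 FPKM in month 4 and at 1.05 to 2.58 in KO, with a log2 change of -2.40 (SE 0.50, limma adjusted p = 0.10). Most of this list was not early by the WT contrast (6 early and 2 late genes), and month 4 stood above both its neighbours in age in sum: summed levels were 19980 and 10700 FPKM in month 4, 8500 and 8432 in month 2, 4000 to 6113 in KO and 5453 to 10250 in WT newborn muscle. The month 4 library with the higher matrix sum also had the higher smooth muscle sum (486 against 291 FPKM), and without it 8 genes met the rule of size, against 22 without the other library and 19 without KO2. Markers of neighbouring cells moved the same way: 11 of 15 tested fibroblast genes had a negative log2 change (median -0.51, 4 lower and 1 higher by size), as had 11 of 12 smooth muscle and pericyte genes (median -0.68, 4 lower by size). Fibroblast genes summed to 2011 and 1236 FPKM in month 4 and to 1451 to 1673 in KO, and smooth muscle and pericyte genes to 486 and 291 and to 156 to 241. None of either list passed the test, none was at 0 in all 6 libraries, and their part in the matrix values was not tested.

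Metabolic genes were past month 4 mainly in KO3. Of the 25 fatty acid oxidation genes tested, none passed the test and 1 met the rule of size, PDK4, with a list median of -0.18 in KO2 and 0.69 in KO3. By size 9 were higher without KO2, 3 without month 4 library 2 and 2 without library 1. PDK4, the kinase that turns muscle from glucose to fat, was at 0.663 and 0.599 FPKM in month 4, at 4.13 and 3.82 in KO2 and at 35.2 and 36.3 in KO3. The KO libraries were above month 4 and below WT newborn muscle (616 to 737), and the log2 change was 3.17 (SE 0.73, 95% interval 1.40 to 4.94, limma adjusted p = 0.12). Of the 25 genes tested, 2, PDK4 among them, had a month 4 mean under 1 FPKM and so were tested through their KO level. UCP3, the muscle uncoupling protein, did not reach the level for testing: it was at 0.136 and 0.352 FPKM in month 4 and at 0.286 to 0.5998 in KO, against 73.9 to 154 in WT newborn. HADHB, a subunit of the mitochondrial trifunctional protein, was at 41.6 FPKM in both month 4 libraries, at 35.1 and 35.4 in KO2 and at 125 and 120 in KO3, the last within 106 to 124 of WT newborn or just above it.

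Glycogen and glycolysis genes were split in the same way, with 0 of 24 past the test, 1 higher and 2 lower by size and medians of -0.82 in KO2 and 0.30 in KO3. The lower count was 9 without month 4 library 1 and 6 without KO3, and without KO2 it was 0, with 5 higher. PFKFB3, which makes the activator of phosphofructokinase, was at 3.35 and 3.08 FPKM in month 4, at 9.22 and 9.50 in KO2 and at 28.6 and 25.9 in KO3, with WT newborn at 191 to 304. KO was above month 4 with a log2 change of 2.13 (SE 0.37, limma adjusted p = 0.075). LDHA, lactate dehydrogenase A, was at 285 and 384 FPKM in month 4, at 58.8 and 60.5 in KO2 and at 210 and 204 in KO3, so KO2 lay below month 2 (70.3 and 82.0). The log2 change was -1.62 (SE 0.50, limma adjusted p = 0.18).

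Glucocorticoid and atrophy genes, which WT newborn muscle expressed at 10-fold the month 4 level or more in sum, differed between the KO animals: they summed to 294 and 304 FPKM in month 4, to 236.5 and 239.6 in KO2 and to 1037 and 1044 in KO3. None of 21 tested passed the test, and 19 had a positive log2 change. By size 3 were higher (FBXO32, ZBTB16 and CEBPD) and 1 was lower (SGK1). Of the 21, 1 had a month 4 mean under 1 FPKM and so was tested through its KO level. The median log2 change was 0.998, but 0.20 in KO2 and 1.83 in KO3, and by size 17 were higher without KO2 and 2 without KO3. FBXO32, the atrophy ubiquitin ligase atrogin-1, was at 2.80 and 2.64 FPKM in month 4, at 4.61 and 4.66 in KO2 and at 31.0 and 32.2 in KO3. KO3 was far above month 4 and KO2 slightly above it, with a log2 change of 1.98 (SE 0.64, limma adjusted p = 0.19) and WT newborn at 110 to 137.

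Other structural and energy lists showed little displacement as groups. Sarcomere scaffold genes (27 tested) had a median log2 change of -0.19 with 2 lower by size, LDB3 and HSPB6. The giant proteins of the sarcomere lay past month 4 in each KO library: TTN (titin) was at 45.6 and 50.3 FPKM in month 4, at 62.1 and 59.2 in KO2 and at 90.02 and 93.7 in KO3, and NEB (nebulin) at 91.6 and 95.6, at 112 and 107 and at 153 and 161. Their log2 changes of 0.72 (SE 0.28, limma adjusted p = 0.26) and 0.49 (SE 0.27, limma adjusted p = 0.40) did not pass the test, and WT newborn muscle was at 78.9 to 104 for TTN. NRAP, an anchor for actin in assembling myofibrils and the late gene with one of the largest WT changes, was at 71.6 and 67.8 FPKM in month 4, at 31.8 and 31.7 in KO2 and at 33.4 and 34.6 in KO3, against 193 to 270 in WT newborn and 0.667 and 0.459 in month 2. All KO libraries lay below month 4, with a log2 change of -0.98 (SE 0.28, 95% interval -1.66 to -0.30, limma adjusted p = 0.17). UNC45B, a myosin chaperone, was at 205 and 210 FPKM in KO2 alone and at 26.2 to 27.7 in the month 4 and KO3 libraries. Excitation and calcium genes (23 tested) had a median of -0.15 with 1 higher (CAV3) and 2 lower (DYSF and SRL). Phosphate energy genes (10 tested) had a median of -0.33 with none by size, and nuclear-encoded oxidative phosphorylation genes (47 tested) a median of -0.05 with none by size, or 4 lower without KO3. COX7A1, the muscle form of a cytochrome oxidase subunit, was at 293 and 514 FPKM in month 4 and at 579 to 717 in KO, and UQCRQ, a complex III subunit, at 469 and 724 and at 376 to 432. COX7A1 thus lay above and UQCRQ below both month 4 libraries, and neither passed the test (log2 change 0.51, SE 0.32, and -0.75, SE 0.30). The oxidative phosphorylation median was 0.02 when gene medians were set equal. The 26 late genes and 1 early gene of that list had a median position of 56.6% in month 4 and 43.4% in KO. The KO animals lay on either side of month 4, at 34.2% in KO2 and 66.1% in KO3. CKM, muscle creatine kinase, was at 4479 and 8251 FPKM in month 4, at 8704 and 9017 in KO2 and at 7878 and 7535 in KO3, against 11842 to 14933 in WT newborn. KO overlapped the upper month 4 library, with a log2 change of 0.20 (SE 0.20, 95% interval -0.29 to 0.70, limma adjusted p = 0.64).

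**Figure D5:**
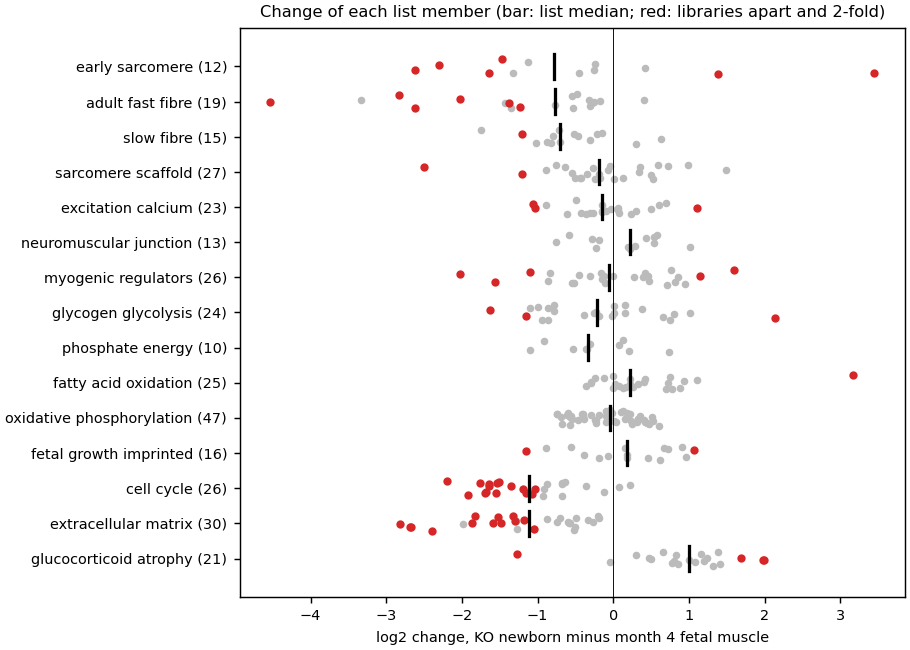
Log2 change of KO against month 4 for each tested member of 15 maturation lists (number tested in brackets), with the list median as a bar and genes that met the rule of size in red. Cell cycle and extracellular matrix members lie mostly below 0, adult fast fibre members lie below 0 with 1 exception, and glucocorticoid members lie above 0 with 2 exceptions.

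Fetal growth and imprinted genes (16 tested) had a median log2 change of 0.18, with 0 past the test and 1 gene in each direction by size, or 4 higher and 2 lower without KO2. DLK1, an imprinted inhibitor of differentiation, was at 1008 and 1118 FPKM in month 4, at 766 and 762 in KO2 and at 586 and 562 in KO3. KO had gone past month 4, at 42.0% of the way to WT newborn against 7.95%, with a log2 change of -1.15 (SE 0.25, limma adjusted p = 0.10). IGF1R, the receptor for insulin-like growth factors, was at 3.48 and 2.36 FPKM in month 4, at 5.53 and 5.64 in KO2 and at 8.11 and 7.50 in KO3, with WT newborn at 4.50 to 6.43. KO lay above month 4 with a log2 change of 1.06 (SE 0.24, limma adjusted p = 0.12). IGF2, the fetal growth factor, was at 2242 and 2415 FPKM in month 4 and at 2109 to 2774 in KO, overlapping it, while WT newborn muscle was at 750.0 to 841. RTL1, an imprinted retrotransposon-derived gene, was at 8.92 and 4.91 FPKM in month 4 and at 8.06 to 14.2 in KO, whereas the WT newborn libraries ranged from 0 to 0.133. MEST, a paternally expressed hydrolase gene, was at 192 and 186 FPKM in month 4 and at 85.5 to 140 in KO, with WT newborn at 18.5 to 53.0.

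Other early genes had among the largest WT changes and were not told apart here. HBZ, the embryonic zeta globin, was at 4.67 and 10.045 FPKM in month 4, at 10.049 and 10.6 in KO2 and at 17.1 and 26.9 in KO3, with month 2 at 62.7 and 48.0. The lowest KO2 library was level with the upper month 4 library and KO3 was above it, against the direction of the WT change, but the log2 change of 1.16 (SE 0.44, limma adjusted p = 0.25) did not pass the test, and HBZ was listed at 0 in 3 of the 4 WT newborn libraries. CRABP2, a retinoic acid carrier, was at 37.8 and 24.8 FPKM in month 4 and at 8.70 to 16.6 in KO, with a log2 change of -1.21 (SE 0.46, limma adjusted p = 0.25). NKAIN4, a partner of the sodium pump, was at 5.06 and 5.86 FPKM in month 4 and at 3.19 to 5.32 in KO, with a log2 change of -0.28 (SE 0.28, 95% interval -0.97 to 0.41).

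Of the 17 late genes that passed the test as higher, 7 have a symbol and 10 carry only a LOC identifier. HBB, adult beta globin of red cells, was at 9.70 and 6.29 FPKM in month 4, at 85.1 and 93.0 in KO2 and at 140 and 131 in KO3. All KO libraries were above month 4 and below WT newborn (1037 to 1115), and HBB was listed at 0 in both month 2 libraries. HBB rose by a log2 change of 3.70 (SE 0.29, limma adjusted p = 0.019). Of the 16 erythroid genes 8 were tested, 2 of them through their KO level; HBB passed the test and 5 were higher by size, 7 without KO2 and 2 without KO3. The list summed to 45.7 and 46.3 FPKM in month 4 and to 122 to 244 in KO. S100A9 and S100A8 are calcium-binding proteins of neutrophils. S100A9 rose by 3.25 (SE 0.32, limma adjusted p = 0.027). The log2 change of S100A8 was 2.92 (SE 0.35, limma adjusted p = 0.047). S100A8 was at 0.531 and 1.22 FPKM in month 4 and at 6.47 to 20.3 in KO, and the whole neutrophil list of 14 genes summed to 4.19 and 5.63 FPKM in month 4 and to 23.0 to 47.3 in KO. Of that list 7 genes stayed under 1 FPKM in all 6 libraries. The 4 genes tested, S100A8 and S100A9 among them, had a month 4 mean under 1 FPKM and so were tested through their KO level. The part of blood content in these values was not tested.

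MAFF, a small MAF transcription factor of stress responses, was at 3.55 and 2.95 FPKM in month 4, at 29.9 and 29.7 in KO2 and at 59.3 and 59.0 in KO3, with WT newborn at 34.8 to 40.9. MAFF rose by 3.43 (SE 0.30, limma adjusted p = 0.020), and KO lay on either side of the WT newborn range. SLC2A3, the high-affinity glucose transporter GLUT3, was at 2.21 and 1.48 FPKM in month 4, at 19.3 and 17.6 in KO2 and at 26.8 and 26.3 in KO3, above the WT newborn range of 3.24 to 7.73. SLC2A3 rose by 3.14 (SE 0.24, limma adjusted p = 0.019). PNMT, the enzyme that makes adrenaline from noradrenaline, was at 0.760 and 1.10 FPKM in month 4 and at 12.1 to 24.6 in KO, with WT newborn at 3.39 to 3.98, and rose by 3.40 (SE 0.28, limma adjusted p = 0.019). The month 4 mean of PNMT was under 1 FPKM, so it was tested through its KO level. N4BP2L1 rose by 2.01 (SE 0.24, adjusted p = 0.047).

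Of the 16 genes of neither class that passed the test as higher, those with a symbol were PSMA2, ADAD2 and PKIB. PSMA2, a subunit of the proteasome core, was at 9.18 and 10.1 FPKM in month 4 and at 66.1 to 90.7 in KO, with a log2 change of 2.97 (SE 0.27, limma adjusted p = 0.022). Month 2 stood at 36.2 and 38.9 FPKM and WT newborn at 27.5 to 51.0, so month 4 was the low group. ADAD2, an adenosine deaminase domain protein, was at 0.0589 and 0.0917 FPKM in month 4 and at 4.98 to 9.84 in KO, and PKIB, an inhibitor of protein kinase A, at 1.37 and 1.20 and at 7.88 to 17.5. Both were low in the WT newborn libraries as well, ADAD2 at 0 to 0.695 FPKM and PKIB at 2.84 to 4.22. ADAD2 had a month 4 mean under 1 FPKM and so was tested through its KO level. It was not tested in the WT contrast, which is why it falls in neither class.

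The early genes that passed the test as lower were STAB1 and TP53I3. STAB1, a scavenger receptor of macrophages and sinusoidal endothelium, was at 17.4 and 16.1 FPKM in month 4, at 2.02 and 1.71 in KO2 and at 4.30 and 4.03 in KO3, below the WT newborn range of 7.27 to 7.71. STAB1 fell by 2.1 on the log2 scale (SE 0.26, limma adjusted p = 0.0496). The macrophage list was also low in KO2. C1QA, a complement gene, was at 13.9 and 15.1 FPKM in month 4. It was at 0.310 and 0 in KO2 and at 7.41 and 5.75 in KO3. Of 15 macrophage genes tested, 14 had a negative log2 change. Of the 15, 1 had a KO mean under 1 FPKM and so was tested through its month 4 level. TP53I3, a p53-induced oxidoreductase, was at 5.28 and 4.86 FPKM in month 4, at 0.264 to 0.496 in KO and at 2.44 to 2.95 in WT newborn, and fell by 2.05 (SE 0.24, limma adjusted p = 0.046). Its KO mean was under 1 FPKM, so it was tested through its month 4 level. STAB1 passed the threshold in 7 of 14 alternatives (limma adjusted p 0.0033 to 0.30) and TP53I3 in 7 of 13 (0.0022 to 0.29), and both were lost with no normalisation beyond FPKM, with a pseudocount of 0.1 and with no filter on low genes. STAB1 was also lost with normalisation over 12 libraries and with repeats averaged first, and TP53I3 with gene medians set equal. Of the higher calls, N4BP2L1 was lost with a filter of 5 FPKM, with no normalisation beyond FPKM and with a pseudocount of 0.1. S100A8 was lost with that filter and that pseudocount, S100A9 with that pseudocount and PKIB with no normalisation beyond FPKM. Each was also lost with no filter on low genes. Of the 13 calls with a symbol, only MYH1 held without month 4 library 1, and only MYH1, HBB, PNMT and S100A9 held without library 2.

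No gene of the hypoxia, immediate early, heat shock or ribosomal protein lists passed the test. Hypoxia genes (24 tested) had a median log2 change of 0.996, with 0.36 in KO2 and 1.53 in KO3. By size 9 (37.5%) were higher and 2 (8.33%) lower, against 4.34% and 4.96% of all genes tested. The higher count was 17 without KO2 and 5 without KO3. Of the 24, 1 had a month 4 mean under 1 FPKM and so was tested through its KO level. BHLHE40, a hypoxia-induced repressor, was at 30.4 and 34.7 FPKM in month 4, at 102 and 103 in KO2 and at 133 and 129 in KO3, above the WT newborn range of 24.3 to 30.9 (log2 change 1.86, SE 0.27, limma adjusted p = 0.063). Immediate early genes (19 tested) had a median of 0.89 with 6 higher by size, 10 without KO2 and 9 without month 4 library 1. Of the 19, 2 had a month 4 mean under 1 FPKM and so were tested through their KO level. NR4A1, an immediate early nuclear receptor, was at 17.4 and 23.4 FPKM in month 4, at 79.4 and 82.3 in KO2 and at 112 and 111 in KO3, with WT newborn at 69.1 to 161 (log2 change 2.27, SE 0.31, limma adjusted p = 0.058). Heat shock genes (15 tested) had a median of 2.77 in KO2 and -0.34 in KO3, and 3 were higher by size, 0 without KO2 and 14 without KO3. FKBP4, a co-chaperone of HSP90, was at 24.4 and 21.6 FPKM in month 4, at 334 and 338 in KO2 and at 35.2 and 37.8 in KO3. Cytosolic ribosomal protein genes, a list added after seeing the data, had 15 of 78 higher by size, 8 without KO3, and a median of 0.60, or 1.15 with gene medians set equal. In the deposited FPKM all KO libraries were above both month 4 libraries for 71 of 81 of these genes (87.7%), against 9.67% of all genes above 0. SLC2A3 and PFKFB3 are also known hypoxia targets. The part of these responses and of ribosomal protein content in the calls was not tested.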

How the data were processed

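The authors deposited FPKM values in a newborn and a fetal table of 28141 genes each. Per the submitters' processing notes CASAVA, HISAT 0.1.6 and Cufflinks 2.0.2 were used, with no role or order given. Build, annotation and strand setting: not given in the sources used here. Of 11294 LOC identifiers, 721 got a symbol by matching identifiers in RefSeq.

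Values were taken as log2(FPKM + 1) and quantile normalised over the 6 libraries, and repeats of an animal were averaged. Genes with a mean of 1 FPKM or more were tested with limma 3.58.1 in R 4.3.3 (eBayes with trend, Benjamini-Hochberg adjusted p under 0.05). Fold changes are on the log2(FPKM + 1) scale and understate the change of low genes. The fit was tested on simulated data with large changes and the same spread for every gene. Smaller changes and wider spreads were not covered. WT newborn against month 2 was fitted in the same way over its own 6 libraries. An exact permutation test of 2 against 2 could not reach the threshold and was not used.

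Members and lists were chosen with earlier results of these data known. Named genes were SIRT6 and up to 12 called genes with a symbol and 5 FPKM in each direction. Those of each maturation class with the largest change were added, with up to 4 members of each maturation list per direction. Added too were 2 of each marker list and all tested myosin heavy chains of the lists. H19, XIST, Y-linked and mitochondrially encoded genes were not named. UCP3, CHRNG, HADHB, TNNT3, C1QA, PVALB, TAGLN, TPM3 and the LOC gene were chosen after their values were seen. Alternatives were other scalings, filters, pseudocounts, error models and leaving out each replicate. Some items are not reported here.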

Additional observations from a re-analysis of the deposited data

How the results depend on the processing

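No paired analysis was possible because nothing in the labels links a newborn KO animal to a month 4 fetal library. The numbers in the titles, 2 and 3 for KO and 1 and 2 for month 4, do not make pairs. The alternatives were chosen with earlier results known, and the rule of size, its counts without each replicate and the ribosomal protein list were chosen after seeing the data. The 43 calls depended strongly on the error model and on the month 4 libraries. Treating the libraries as replicates gave 697 higher and 748 lower, with 234 late genes passed and 52 behind and 302 early genes passed and 45 behind; keeping the animal as a correlated unit gave 177 and 115, with 77, 9, 49 and 15 in the same order. Leaving out each animal or month 4 library gave 1 to 552 higher and 1 to 610 lower, 1 to 270 late genes passed and 1 to 29 behind, and 0 to 342 early genes passed and 0 to 42 behind. Without month 4 library 1, 2 of 42 calls were kept, without library 2, 10 of 42, and without KO2 or KO3 all 43 were kept among 1162 and 584; an arm with 1 sample was assumed to vary like the other. With no filter on low genes 1 gene was higher, a late gene passed, and 0 were lower, with 0 late genes behind, 0 early genes passed and 0 behind, although 3196 genes had an unadjusted p under 0.05. A filter of 5 FPKM gave 5 lower and 1 late gene behind. No normalisation beyond FPKM gave 19 lower, 9 early genes passed and 2 behind, and a median position of 57.6% for month 4 late genes. A pseudocount of 0.1 gave 4 lower, 1 late gene behind and 0 early genes passed. Early genes passed were 1 with gene medians set equal, 1 with normalisation over 12 libraries (0 behind) and 1 with repeats averaged first. The causes were not tested. By size, leaving out each in turn gave 179 to 471 late genes passed and 51 to 91 behind, and 224 to 541 early genes passed and 46 to 96 behind, with passed above behind each time. Among the genes named, 876 values under an alternative kept their direction and side of the threshold, 48 lost a call and 110 gained one. The sign turned, with no call, for IGF2 (0.155 with gene medians set equal and 0.056 with no normalisation) and, without 1 animal or 1 month 4 library, for SIRT6 (-0.125 to 0.058), UNC45B (-0.075 to 3.07), MYH6 (-0.62 to 0.198) and MYH7B (-1.39 to 0.38). FPKM keeps no depth, so depth limits cannot be stated.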

Other observations

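The 12 Schwann and nerve genes had a median log2 change of -1.25 in KO2 and 1.13 in KO3, with 0 past the test in limma and 0 at an unadjusted p under 0.05. The 8 cartilage and tendon genes tested had a median of -0.01 in KO2 and -2.60 in KO3, with 0 past the test. CHAD (chondroadherin) was below month 4 in both animals, at 9.84 and 18.5 FPKM in month 4, 4.18 and 5.70 in KO2 and 0.189 and 0.290 in KO3. How much of each tissue the samples held was not tested.

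Vascular genes had mixed directions and leaned lower. Of 15 endothelial genes tested, none passed the test, and 10 had a negative and 5 a positive log2 change. The median was -0.21, with -0.33 in KO2 and -0.27 in KO3. In FPKM all KO libraries lay below both month 4 libraries for 6 of the 15 (40.0%) and above them for 1 (6.67%). Of all genes above 0 the shares were 20.6% and 9.67%. FLT1, the VEGF receptor 1, was at 4.52 and 3.48 FPKM in month 4, at 11.9 and 11.0 in KO2 and at 30.4 and 31.7 in KO3 (log2 change 2.11, SE 0.35, limma adjusted p = 0.072), while SOX18, an endothelial transcription factor, was at 74.1 and 83.5 in month 4 and at 20.3 to 37.0 in KO (log2 change -1.41, SE 0.27, limma adjusted p = 0.092).

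The gene listed as LOC102123152 was at 0 in both month 4 libraries, at 178, 175, 217 and 205 FPKM in the KO libraries, at 0.961 and 0.528 in month 2 and at 85.7 to 226 in WT newborn muscle. It was the only gene past the test with no filter on low genes (limma adjusted p = 0.00079 as reported), and what it encodes is not paired with the identifier in the tables used here.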
